A study of Mus musculus with 6 samples.

Results

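The genes described here are 29 oligodendrocyte and myelin genes. They were chosen by symbol from general knowledge of this cell type, with earlier results of these data known. All 29 were among the 55414 genes in the deposited table. They comprise 13 genes of the myelin sheath and its membrane, 7 enzymes of lipid and metabolite pathways, 5 transcription factors and 4 secreted or other proteins. RNA was sequenced from adult microglia of C57BL/6 mice aged 10 months; microglia are the macrophages that live in brain tissue. One group of 3 libraries carried the genotype label Selk-/-, a loss of Selenok, the gene of an endoplasmic reticulum selenoprotein, and the other group of 3 was wild type (WT). No source used here gives how the microglia were isolated, or whether every library stands for its own animal, so the p-values cover library-to-library spread only, and part of it may be technical. The libraries are called Selk-/- 1 to 3 and WT 1 to 3, which are names and do not pair them. The titles of Selk-/- 3 and WT 3 each hold a pair of numbers, and whether these are pools is not given.

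Oligodendrocytes wrap axons of the central nervous system in myelin, a compacted membrane that is rich in galactolipids and in a small set of proteins and that speeds conduction. The transcription factors Olig1, Olig2, Sox10, Nkx6-2 and Myrf act in succession during the lineage and switch on genes of the sheath. Microglia are a different lineage and are not the source cells of myelin, and they are known to engulf its debris.

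Total counts were 21112082 to 27541487 in the Selk-/- libraries and 26694358 to 28123871 in the WT libraries, so a floor of 3 counts stood for 0.106 to 0.142 CPM. CPM is a gene's count scaled to a common, TMM-adjusted library total. All 10 microglia markers examined (P2ry12, Tmem119, Cx3cr1 and others) were present, with sums of 21374, 20310 and 21330 CPM in Selk-/- 1 to 3, against 24600, 25105 and 24960 CPM in WT 1 to 3. Selenok averaged 110 ± 2.19 CPM in Selk-/- libraries and 119 ± 6.57 CPM in WT libraries (SD, n = 3 each; log2 fold change -0.12, adjusted p = 0.381 in edgeR). Its count is therefore no check of the genotype, and Selk-/- is used below as the label of the libraries. Small nucleolar RNA genes held 330, 46.5 and 55.0 CPM in Selk-/- 1 to 3, against 315, 321 and 325 CPM in WT 1 to 3, so Selk-/- 2 and Selk-/- 3 stood apart. WT 2 stood apart for the genes described here, and values without it are given for the whole list and for each gene whose log2 fold change it moved by over 1.5 times.

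On a per-length scale (FPKM, which corrects fragment numbers for the length of a gene and the size of a library), the 29 genes covered a wide range of levels in these microglial libraries. Enpp2 and Trf were the highest, with means over the 6 libraries of 380 and 369 FPKM. Apod followed at 85.8, Mal at 56.1, Qdpr at 37.8, Mbp at 26.0, Cnp at 22.3 and Pllp at 17.5 FPKM. These 8 genes were the ones at 10 FPKM or more. Ppp1r14a, Cldn11, Mag, Mobp, Tspan2 and Aspa lay between 2.69 and 9.66 FPKM. The remaining 15 genes averaged under 2 FPKM, a bound chosen after their values were seen, and Gal3st1 was the lowest at 0.117 FPKM. The first pair in this order did not differ beyond its spread, since Enpp2 was at 420 ± 85.2 FPKM in Selk-/- libraries and 340 ± 123 FPKM in WT libraries, against 337 ± 5.38 and 402 ± 28.2 FPKM for Trf (SD, n = 3 each).

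**Figure D1:**
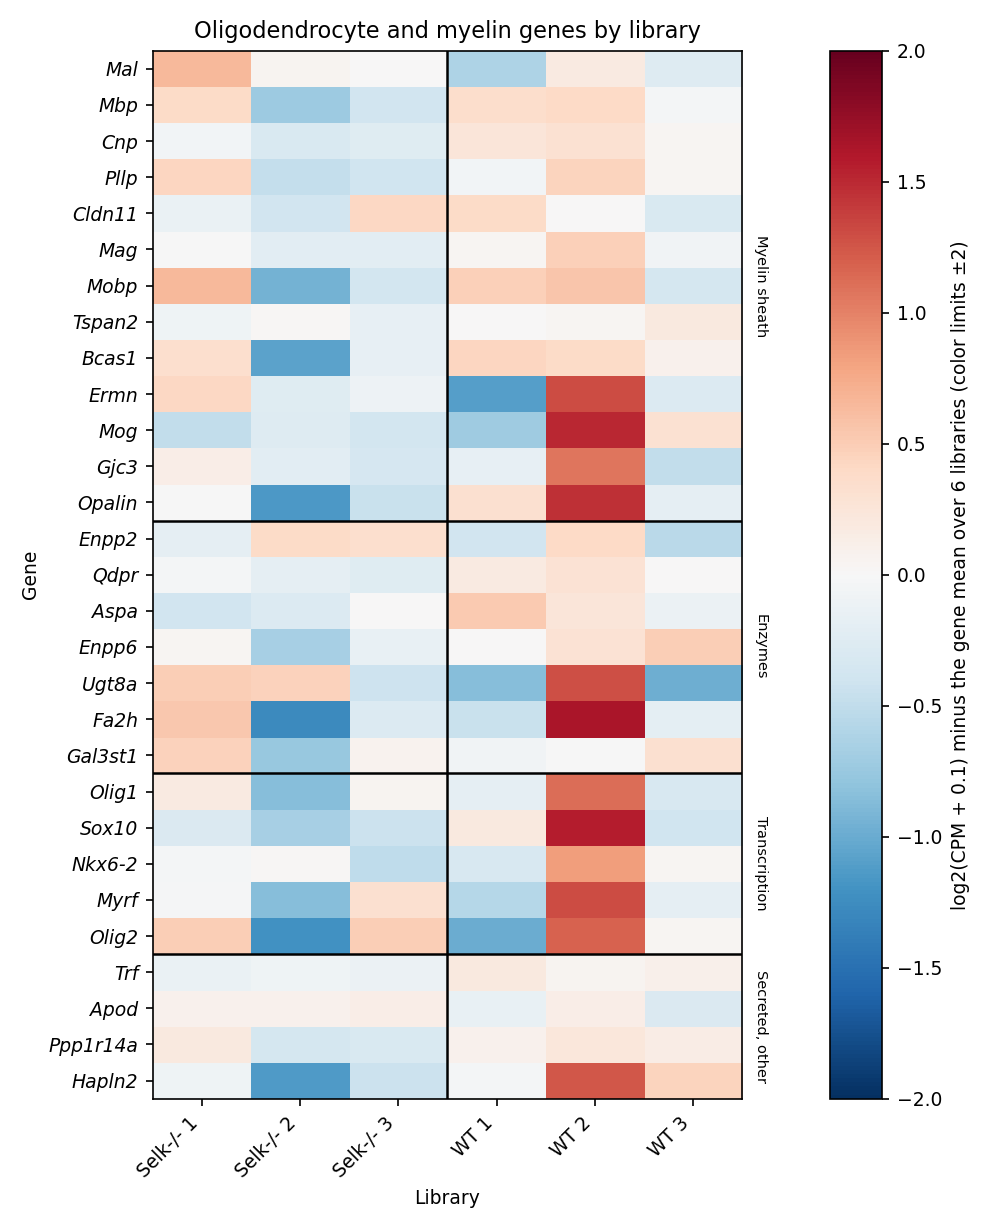
Each row is 1 of the 29 genes, grouped by role, and each column is a library. Color gives log2(CPM + 0.1) minus that gene's mean over the 6 libraries. In Selk-/- 2, 16 of the 29 genes had their lowest value, against 23.2% of all genes tested. In WT 2, which holds the darkest red cells, 20 of the 29 had their highest, against 16.2% of all genes tested. The 29 include Opalin, Fa2h and Gal3st1, which were not tested.

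Across the 26 genes that passed the filter on low counts, 22 were lower in Selk-/- libraries than in WT libraries, or 84.6%, against 51.3% of the 17739 genes tested. Their median log2 fold change was -0.33, against -0.01 for all genes tested. The median was -0.35 without Trf. All 10 microglia markers (median -0.25), all 10 border macrophage markers (-0.91) and 8 of 10 astrocyte markers (-0.23) were lower too. So were 7 of 10 lymphocyte markers (-0.37). Choroid plexus and ependymal markers (5 of 10 lower, median 0.02) and tested neuron markers (5 of 9, -0.05) were near the share of all genes tested. Fewer were lower for Schwann cells (2 of 5 tested), fibroblast and mural cells (3 of 10), endothelial cells (1 of 10) and neutrophils (0 of 10). A lean downward was thus not particular to the oligodendrocyte and myelin genes. In bulk RNA, fewer cells of a type and less RNA per cell cannot be told apart. The genes that the filter removed were Opalin, Fa2h and Gal3st1, all with low counts.

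The shift of the 26 tested genes rested in part on single libraries. Without WT 2, 17 of 26 tested genes were lower and the median was -0.14. Without Selk-/- 1, 23 of 27 were lower and the median was -0.56. With the small nucleolar RNA split as a block, which leaves Selk-/- 1 as the only Selk-/- library to set against WT, 16 of 26 were lower and the median was -0.17.

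None of the 29 genes passed an adjusted p of 0.05 in edgeR's quasi-likelihood test, in which 0% of all genes tested did. At an unadjusted p under 0.05 there were 4, all lower in Selk-/- libraries (Cnp, Qdpr, Trf and Hapln2), against 19.1% of all genes tested with 9.74% in that direction and 9.34% in the other. That is 4 of 26. The same 4 genes were the ones whose Selk-/- values all lay below all WT values, against 26.2% of genes with groups that did not overlap with 13.7% in that direction and 12.5% in the other. DESeq2 gave an adjusted p to 15 of the genes and called Cnp and Trf, both lower, against 7.62% of genes called in all 3.7% as lower and 3.92% as higher. Limma-voom called 0 of these genes and 0% of all genes at an adjusted p of 0.05, with 3680 genes at an unadjusted p under 0.05. Counted in either direction, the share of these genes past the unadjusted threshold or with groups apart was no higher than that of all genes.

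**Figure D2:**
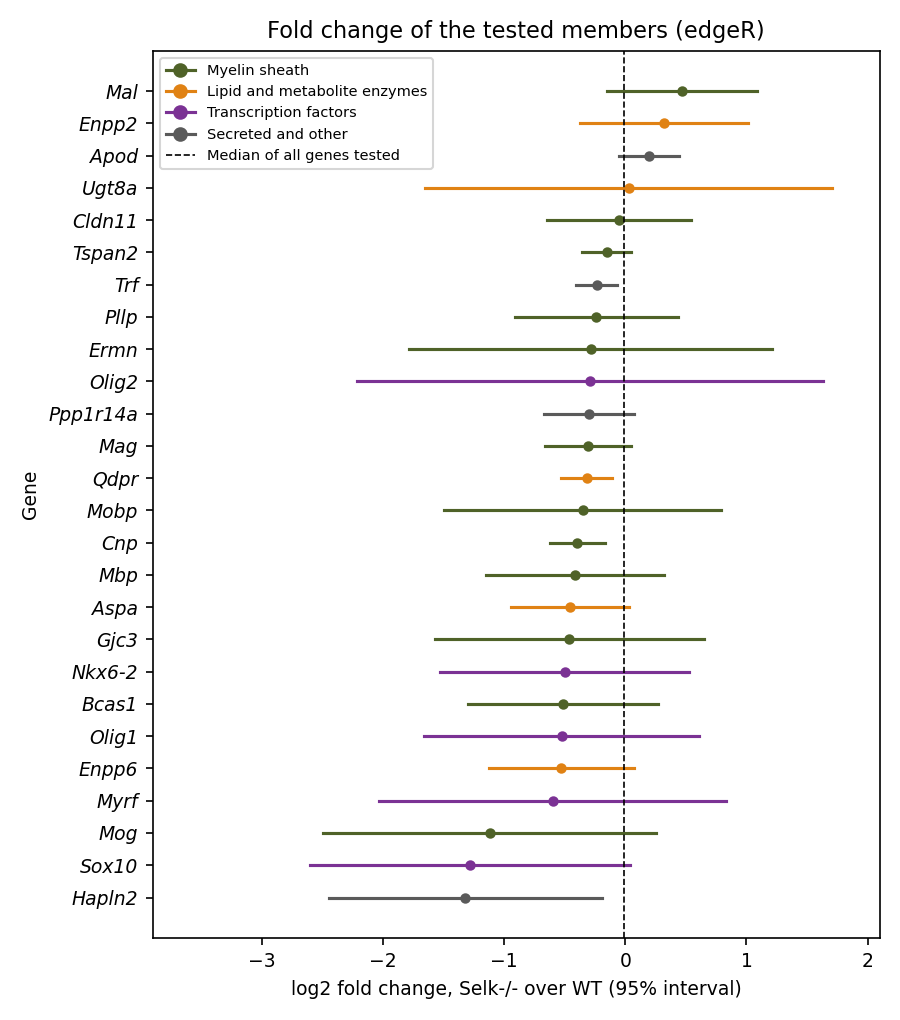
Points are log2 fold changes, Selk-/- over WT, for the 26 tested genes in edgeR, with 95% intervals, colored by role. The dashed line is the median of all genes tested, at -0.01, and only the intervals of Cnp, Qdpr, Trf and Hapln2 lie wholly below 0.

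Among the 13 sheath genes, 11 of the 12 tested were lower in Selk-/- libraries, with a median log2 fold change of -0.33. Cnp (ENSMUSG00000006782, chromosome 11, 100465730 to 100482555 in the deposited table), which encodes the phosphodiesterase that keeps cytoplasmic channels open in the sheath, was at 59.6, 50.1 and 52.1 CPM in Selk-/- 1 to 3, against 73.3, 76.4 and 63.5 CPM in WT 1 to 3. All 3 Selk-/- libraries lay below all 3 WT libraries. The means were 53.9 ± 4.96 CPM in Selk-/- libraries and 71.1 ± 6.72 CPM in WT libraries (SD, n = 3 each). Cnp was lower by a log2 fold change of -0.40 (SE 0.098, with an interval at 95% of -0.62 to -0.17), with an adjusted p of 0.12 in edgeR and 0.0165 in DESeq2. It ranged between -0.46 and -0.33 with any 1 library left out and was -0.26 with the small nucleolar RNA block. Dnajc7 lies on the opposite strand and shares 8912 of the 16826 bases that Cnp spans. It had 3647 to 4918 counts per library, and because the use of strand in counting is not given, the counts of Cnp are uncertain.

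Mbp (ENSMUSG00000041607, chromosome 18, 82493271 to 82603762), which encodes the basic protein that holds the inner faces of the myelin membrane together, was at 97.4, 45.1 and 57.4 CPM in Selk-/- 1 to 3, against 95.4, 98.3 and 72.7 CPM in WT 1 to 3. Selk-/- 1 was as high as the WT libraries, while Selk-/- 2 and Selk-/- 3 were below all of them, so the groups overlapped. The means were 66.6 ± 27.3 CPM in Selk-/- libraries and 88.8 ± 14 CPM in WT libraries (SD, n = 3 each). Its log2 fold change was -0.41 (SE 0.299, adjusted p = 0.494 in edgeR). Without Selk-/- 1 it was -0.78, and with the small nucleolar RNA block it was 0.13.

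Mobp, which encodes another basic protein of compact myelin and is given in full after its values were seen, had a like arrangement, with 29.5, 9.75 and 14.5 CPM in Selk-/- 1 to 3, against 26.3, 27.7 and 14.8 CPM in WT 1 to 3. Its log2 fold change was -0.35 (edgeR adjusted p = 0.713), -0.19 without WT 2 and -0.035 without Selk-/- 2. Its level in Selk-/- 1 was 2.43 times the mean of Selk-/- 2 and Selk-/- 3. In total, 13 of the 29 genes were at least 1.4 times higher in Selk-/- 1 than in the mean of Selk-/- 2 and Selk-/- 3, a bound chosen after the values were seen. Of these, 5 averaged at least 2 FPKM, where 3.02% of tested genes reached the bound, and 8 averaged less, where 8.83% did and where several genes had few counts. Mbp (1.90 times), Pllp (1.83), Mal (1.52), Fa2h (2.94) and Opalin (2.19) were among them, the last pair on 2 to 18 counts per Selk-/- library, whereas Cnp (1.16), Mag (1.16), Tspan2 (0.99) and Cldn11 (0.87) were not. Fa2h, Opalin and Gal3st1 were among the 8 but not among the tested genes that these shares cover. The small nucleolar RNA level split the same libraries, and its part in this pattern was not tested.

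Mal (ENSMUSG00000027375, chromosome 2, 127475146 to 127498615), a proteolipid of membrane rafts that is also made outside the oligodendrocyte lineage, was the one tested sheath gene with a positive log2 fold change. It was at 276, 184 and 178 CPM in Selk-/- 1 to 3, against 115, 199 and 148 CPM in WT 1 to 3. Selk-/- 1 was the highest library and WT 1 the lowest, and WT 2 lay above Selk-/- 2 and Selk-/- 3. The means were 213 ± 54.9 CPM in Selk-/- libraries and 154 ± 42.7 CPM in WT libraries (SD, n = 3 each). Its log2 fold change was 0.47 (SE 0.254, adjusted p = 0.371 in edgeR), and 0.70 without WT 2.

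The other sheath genes with moderate counts had groups that overlapped. Mag, an adhesion molecule of the innermost wrap, spanned 17.7 to 20.5 CPM in Selk-/- libraries, against 19.6 to 28.8 CPM in WT libraries (log2 fold change -0.31, and -0.12 without WT 2). Tspan2, a tetraspanin, spanned 25 to 28.4 CPM in Selk-/- libraries, against 28.1 to 31.9 CPM in WT libraries (-0.15). Pllp, plasmolipin, spanned 27.0 to 50.7 CPM in Selk-/- libraries, against 36.2 to 51.0 CPM in WT libraries (-0.24, and -0.068 without WT 2). WT 2 was the highest library for Mag and Pllp, and WT 3 for Tspan2. Cldn11, which forms the tight junctions of the sheath, spanned 15 to 26.1 CPM in Selk-/- libraries, against 15.8 to 25.4 CPM in WT libraries, with a log2 fold change of -0.05 that was 0.11 in limma-voom and had no stable sign. Bcas1, a protein of newly myelinating cells, spanned 1.71 to 4.65 CPM in Selk-/- libraries, against 3.92 to 5.00 CPM in WT libraries (-0.51). Tspan2 and Pllp overlap other genes on the opposite strand (Tshb with up to 790 counts and Gm45767 with up to 238), which makes their counts uncertain in the same way.

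**Figure D3:**
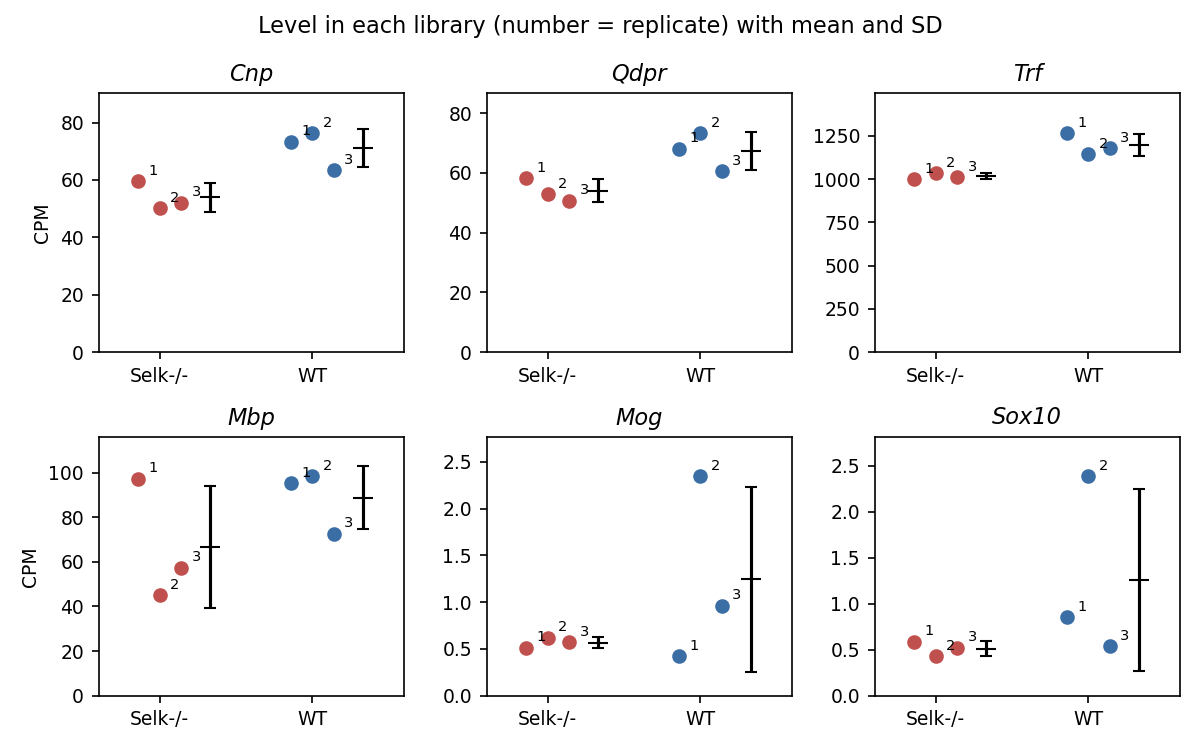
CPM in each library for 6 genes, with the Selk-/- libraries at left and the WT libraries at right, the replicate number beside each point, and the mean and SD (n = 3) as bars. Cnp, Qdpr and Trf had no overlap between groups. The Mbp value of Selk-/- 1 lay among the WT values, and WT 2 was the high point for Mog and Sox10.

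The promoters of 6 genes are printed because these genes stand for the different patterns among the sheath genes: Cnp with groups that did not overlap, Mobp with a high value in Selk-/- 1, Mog, Opalin and Ermn with a high value in WT 2, and Mal with the opposite sign. The sequences are the 250 bases before the start of the gene, from RefSeq on GRCm38.p6, written 5′ to 3′ on the strand of the gene. Gene positions in the deposited table differ from those of GRCm38.p6, so the promoter positions cannot be set against them. Capitals mark ACAAAG or ACAATG on either strand, so that ACAAAG on the other strand reads CTTTGT; these are core letters that SOX proteins, among them Sox10, bind.
Cnp (chr11:100574689-100574938, + strand): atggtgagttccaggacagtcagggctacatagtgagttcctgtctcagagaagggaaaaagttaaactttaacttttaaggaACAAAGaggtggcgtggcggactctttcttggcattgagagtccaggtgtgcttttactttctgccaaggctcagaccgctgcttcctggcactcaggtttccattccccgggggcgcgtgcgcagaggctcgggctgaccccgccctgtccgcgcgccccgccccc
Mobp (chr9:120149492-120149741, + strand): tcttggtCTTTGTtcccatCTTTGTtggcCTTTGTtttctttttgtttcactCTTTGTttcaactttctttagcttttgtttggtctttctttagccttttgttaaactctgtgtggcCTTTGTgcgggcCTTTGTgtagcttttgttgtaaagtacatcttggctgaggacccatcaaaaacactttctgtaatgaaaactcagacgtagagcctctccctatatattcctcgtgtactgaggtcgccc
Mog (chr17:37023399-37023648, - strand): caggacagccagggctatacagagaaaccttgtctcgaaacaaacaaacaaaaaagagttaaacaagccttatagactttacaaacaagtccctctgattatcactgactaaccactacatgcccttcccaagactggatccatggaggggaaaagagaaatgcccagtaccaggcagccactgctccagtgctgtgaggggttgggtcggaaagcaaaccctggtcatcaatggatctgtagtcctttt
Opalin (chr19:41077114-41077363, - strand): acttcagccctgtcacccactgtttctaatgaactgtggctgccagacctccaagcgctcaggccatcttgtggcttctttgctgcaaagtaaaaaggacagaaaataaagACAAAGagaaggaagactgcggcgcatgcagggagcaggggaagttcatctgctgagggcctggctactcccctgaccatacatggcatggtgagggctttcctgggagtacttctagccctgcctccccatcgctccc
Ermn (chr2:58052865-58053114, - strand): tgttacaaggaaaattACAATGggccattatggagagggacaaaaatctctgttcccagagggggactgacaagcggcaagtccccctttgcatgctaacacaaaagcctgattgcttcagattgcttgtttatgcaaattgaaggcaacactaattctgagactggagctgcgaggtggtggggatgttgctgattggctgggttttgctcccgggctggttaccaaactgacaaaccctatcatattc
Mal (chr2:127656696-127656945, - strand): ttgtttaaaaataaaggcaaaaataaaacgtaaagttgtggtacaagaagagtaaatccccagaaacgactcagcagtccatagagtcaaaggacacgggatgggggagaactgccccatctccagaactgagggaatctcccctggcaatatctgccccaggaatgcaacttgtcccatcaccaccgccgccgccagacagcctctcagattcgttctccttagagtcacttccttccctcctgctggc
Mobp held ACAAAG 6 times, all read on the other strand, and the copies lay between 120 and 243 bases before the start. Cnp and Opalin held ACAAAG 1 time each, at 167 and 139 bases before the start, and Ermn held ACAATG 1 time, at 234 bases before it. Neither motif was in the windows of Mog and Mal. Of the 29 genes, 21 had a promoter in the RefSeq table, with 26 promoters between them, because some genes had more than 1. At least 1 of the 2 motifs was in 13 of these 26 promoters, against 25.2% of 32851 promoters of this length. Promoters of 1 gene are not independent, and counted by gene it was in 11 of 21. ACAAAG was in 7 of the 26 promoters, against 16.5% of all promoters, and ACAATG in 6 of the 26, against 10.7%. These matches describe letters in a window and are not binding sites.

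Among the 7 enzymes, 3 of the 5 tested were lower in Selk-/- libraries, and their median log2 fold change was -0.32. Qdpr (ENSMUSG00000015806, chromosome 5, 45591363 to 45607578), which encodes dihydropteridine reductase, the enzyme that regenerates tetrahydrobiopterin, was at 58.2, 53.0 and 50.7 CPM in Selk-/- 1 to 3, against 68.1, 73.4 and 60.5 CPM in WT 1 to 3. All Selk-/- values lay below all WT values. The means were 54.0 ± 3.85 CPM in Selk-/- libraries and 67.3 ± 6.47 CPM in WT libraries (SD, n = 3 each). Qdpr had a log2 fold change of -0.32 (SE 0.092, 95% interval -0.53 to -0.11). The adjusted p was 0.146 in edgeR and 0.0565 in DESeq2. The log2 fold change was -0.21 with the small nucleolar RNA block.

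Enpp2 (ENSMUSG00000022425, chromosome 15, 54702297 to 54816288) encodes autotaxin, a secreted enzyme that makes lysophosphatidic acid and is also a product of the choroid plexus. It was at 1144, 1694 and 1650 CPM in Selk-/- 1 to 3, against 992, 1709 and 891 CPM in WT 1 to 3. WT 2 was at the level of Selk-/- 2 and Selk-/- 3, and Selk-/- 1 was nearer to WT 1 and WT 3. The log2 fold change was 0.32 (SE 0.285, edgeR adjusted p = 0.575), 0.67 without WT 2 and -0.07 with the small nucleolar RNA block.

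Aspa (ENSMUSG00000020774, chromosome 11, 73195818 to 73220422), aspartoacylase, which splits N-acetylaspartate to supply acetate for myelin lipids, was at 3.81, 4.12 and 4.98 CPM in Selk-/- 1 to 3, against 7.24, 5.90 and 4.57 CPM in WT 1 to 3. WT 3 was below Selk-/- 3, so the groups overlapped, and the log2 fold change was -0.46 (SE 0.210, edgeR adjusted p = 0.288). Enpp6, a choline phosphodiesterase of new oligodendrocytes, spanned 1.4 to 2.35 CPM in Selk-/- libraries, against 2.31 to 3.25 CPM in WT libraries (log2 fold change -0.53). Ugt8a, the enzyme that makes galactosylceramide, spanned 0.949 to 1.87 CPM in Selk-/- libraries, against 0.607 to 3.33 CPM in WT libraries. Its log2 fold change of 0.03 had no stable sign and was 1.28 without WT 2. Fa2h, which hydroxylates the fatty acids of myelin galactolipids, had 3 to 18 counts per Selk-/- library, against 8 to 40 per WT library. Gal3st1, which turns galactosylceramide into sulfatide, had 3 to 11 counts per Selk-/- library, against 7 to 10 per WT library. Neither Fa2h nor Gal3st1 was tested.

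All 5 transcription factors had negative log2 fold changes, with a median of -0.53, and none had groups that did not overlap. Sox10 (ENSMUSG00000033006, chromosome 15, 79039108 to 79049440), required for the lineage to mature, was at 0.586, 0.427 and 0.522 CPM in Selk-/- 1 to 3, against 0.852, 2.38 and 0.535 CPM in WT 1 to 3. WT 2 was far above the other libraries, and WT 3 lay within the range of the Selk-/- libraries. The log2 fold change was -1.28 (SE 0.564, edgeR adjusted p = 0.274), and it was -0.43 without WT 2. Olig1 spanned 0.816 to 1.76 CPM in Selk-/- libraries, against 1.21 to 3.48 CPM in WT libraries (log2 fold change -0.53). Myrf spanned 0.388 to 0.997 CPM in Selk-/- libraries, against 0.497 to 2.08 CPM in WT libraries (-0.60). Both differed by less than the spread between libraries. Olig2 had 2 to 13 counts in Selk-/- libraries, against 3 to 22 in WT libraries (-0.29). Nkx6-2 had 5 to 10 counts in Selk-/- libraries, against 8 to 20 in WT libraries (-0.50), and it shares 277 bases with Inpp5a on the opposite strand, so its counts are uncertain too. Without WT 2 the log2 fold changes of Olig1, Olig2 and Myrf were 0.13, 0.66 and 0.28, so their direction rested on that library, and that of Nkx6-2 was -0.01.

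Among the 4 secreted and other proteins, 3 were lower in Selk-/- libraries, and the median log2 fold change was -0.27. Trf (ENSMUSG00000032554, chromosome 9, 103081200 to 103107643), transferrin, which carries iron and is made in the brain by oligodendrocytes and the choroid plexus, was at 1001, 1035 and 1014 CPM in Selk-/- 1 to 3, against 1267, 1146 and 1181 CPM in WT 1 to 3. The Selk-/- libraries were close to each other and all below the WT libraries. The means were 1016 ± 17.0 CPM in Selk-/- libraries and 1198 ± 62.6 CPM in WT libraries (SD, n = 3 each). Trf was lower by a log2 fold change of -0.24 (SE 0.072, with an interval at 95% of -0.40 to -0.07), with an adjusted p of 0.157 in edgeR and 0.0192 in DESeq2. It ranged between -0.27 and -0.20 over the 17 alternatives run. Trf was neither among the genes high in WT 2 nor among those high in Selk-/- 1.

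Apod (ENSMUSG00000022548, chromosome 16, 31115010 to 31133626), a lipid-binding lipocalin, was at 147, 146 and 150 CPM in Selk-/- 1 to 3, against 124, 151 and 113 CPM in WT 1 to 3. WT 2 lay above the Selk-/- libraries and the other WT libraries below them, and the log2 fold change was 0.19 (SE 0.108, edgeR adjusted p = 0.365), and 0.33 without WT 2. Hapln2 (ENSMUSG00000004894, chromosome 3, 87929057 to 87934890), a link protein of the matrix at nodes of Ranvier, had 14, 5 and 8 counts in Selk-/- 1 to 3, against 15, 38 and 22 counts in WT 1 to 3. These counts were 0.513, 0.194 and 0.380 CPM in Selk-/- libraries, against 0.532, 1.44 and 0.785 CPM in WT libraries. The groups were apart by the small gap between Selk-/- 1 and WT 1, and the log2 fold change was -1.32 (SE 0.486, edgeR adjusted p = 0.208) and -0.85 without WT 2. Ppp1r14a, an inhibitor of myosin phosphatase, spanned 8.2 to 12 CPM in Selk-/- libraries, against 11.3 to 12.4 CPM in WT libraries (log2 fold change -0.30).

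The genes at low levels shared 1 library. Of the 15 genes under 2 FPKM, 12 were highest in WT 2, against 13.2% of all tested genes under that level. In these 12 (Olig1, Olig2, Sox10, Myrf, Nkx6-2, Mog, Ermn, Opalin, Gjc3, Ugt8a, Fa2h and Hapln2), the WT 2 value was at least 2 times the mean of WT 1 and WT 3, a bound chosen after the values were seen. Among all tested genes, 0.913% reached that ratio, and 2.29% of tested genes under 2 FPKM did. Opalin and Fa2h, among the 12, and Gal3st1, among the 15, were not tested, so the shares of tested genes leave them out. The highest ratios were 5.20 for Ugt8a, 4.72 for Fa2h and 4.06 for Ermn. The 3 low genes without it were Bcas1 (1.08), Enpp6 (1.01) and Gal3st1 (0.87). None of the 14 genes above this level reached a ratio of 2, and Trf was at 0.94.

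Mog, given in full after its values were seen and encoding a glycoprotein of the outer surface of the sheath, shows the precision at this depth. It had 14, 16 and 12 counts in Selk-/- 1 to 3, against 12, 62 and 27 counts in WT 1 to 3. The highest upper bound of the exact 95% Poisson intervals was 1.01 CPM in Selk-/- libraries, below the interval of WT 2, 1.80 to 3.01 CPM. The 3 Selk-/- libraries lay above WT 1, which was at 0.426 CPM (0.220 to 0.744), and intervals of this kind cover counting error only. The log2 fold change of Mog was -1.12 (SE 0.585, edgeR adjusted p = 0.345), and it was -0.28 without WT 2. Ermn, a cytoskeletal protein of late maturation, had 38 to 72 counts in Selk-/- libraries, against 24 in WT 1, 132 in WT 2 and 45 in WT 3. Its log2 fold change was -0.29, and 0.73 without WT 2. Gjc3, a connexin, had 11 to 21 counts in Selk-/- libraries, against 13 to 41 in WT libraries, and its log2 fold change of -0.46 was 0.24 without WT 2. Opalin, a membrane glycoprotein of oligodendrocytes, had 8, 2 and 4 counts in Selk-/- 1 to 3, against 11, 26 and 7 counts in WT 1 to 3. Summed over the 15 low genes, the level was 18.6, 10.4 and 14.2 CPM in Selk-/- 1 to 3, against 14.4, 33.6 and 15.7 CPM in WT 1 to 3.

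Sums over the whole list followed its few most abundant genes. All 29 genes summed to 2962, 3327 and 3292 CPM in Selk-/- 1 to 3, against 2905, 3660 and 2682 CPM in WT 1 to 3, a log2 ratio of the means of 0.05. Without Trf, the sums were 1961, 2293 and 2278 CPM in Selk-/- 1 to 3, against 1637, 2515 and 1500 CPM in WT 1 to 3, a log2 ratio of 0.21. Enpp2 alone held 58.3% to 73.9% of the sum without Trf in the 6 libraries. With Enpp2 also left out, an alternative chosen after seeing the data, the log2 ratio was -0.01. The 25 genes left without Trf, Enpp2, Mal and Apod summed to 395, 269 and 300 CPM in Selk-/- 1 to 3, against 407, 456 and 349 CPM in WT 1 to 3, a log2 ratio of -0.33. Selk-/- 1 lay within the WT range there, and the groups overlapped in each of these sums.

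**Figure D4:**
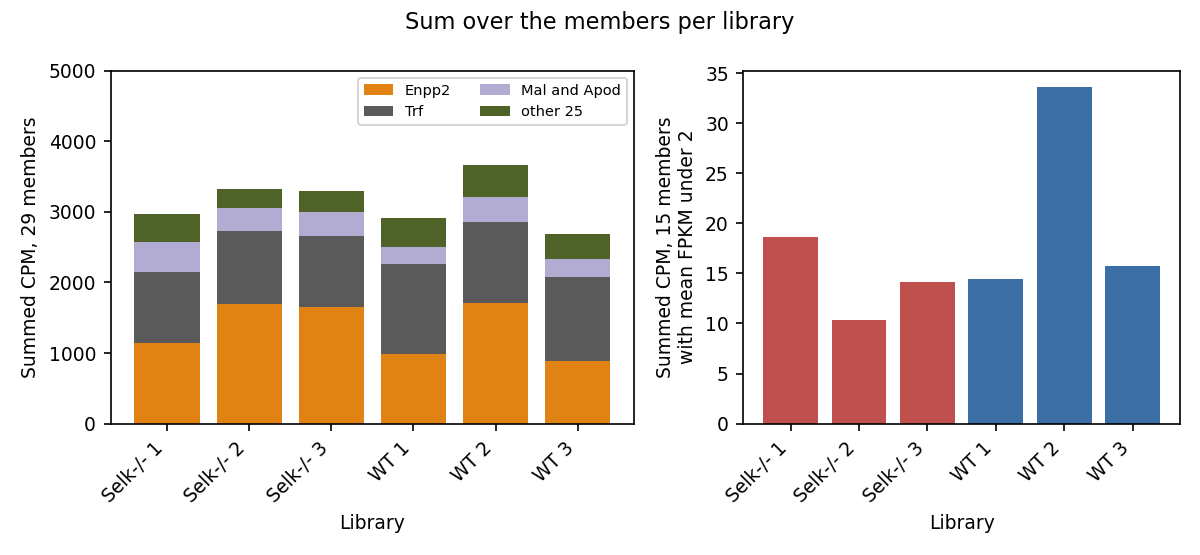
Bars at left are summed CPM of the 29 genes per library, divided into Enpp2, Trf, Mal with Apod, and the other 25. Bars at right are summed CPM of the 15 genes with a mean under 2 FPKM, with WT 2 at 33.6 CPM and the other libraries between 10.4 and 18.6 CPM.

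Markers of other cell types were summed beside these genes, and their part in the results was not tested. The 10 choroid plexus and ependymal markers (Ttr, Folr1 and others, all detected in every library) summed to 2336, 3177 and 3150 CPM in Selk-/- 1 to 3, against 2535, 3550 and 2203 CPM in WT 1 to 3. Enpp2 had the same 3 highest libraries, WT 2, Selk-/- 2 and Selk-/- 3, and the same lowest, WT 3. Per unit of Ttr, the carrier protein of the choroid plexus, Enpp2 was at 0.538, 0.585 and 0.583 in Selk-/- 1 to 3, against 0.442, 0.533 and 0.444 in WT 1 to 3. The 10 endothelial markers (Cldn5, Pecam1 and others, none at 0) summed to 7670, 5649 and 5494 CPM in Selk-/- 1 to 3, against 4379, 5781 and 5347 CPM in WT 1 to 3. Of these markers, 9 had positive log2 fold changes, while Cldn5 was at 523, 440 and 364 CPM in Selk-/- 1 to 3, against 695, 645 and 554 CPM in WT 1 to 3 (log2 fold change -0.51, edgeR adjusted p = 0.142, DESeq2 adjusted p = 0.0087). Mal had exactly the order of the 6 libraries that the endothelial sum had.

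**Figure D5:**
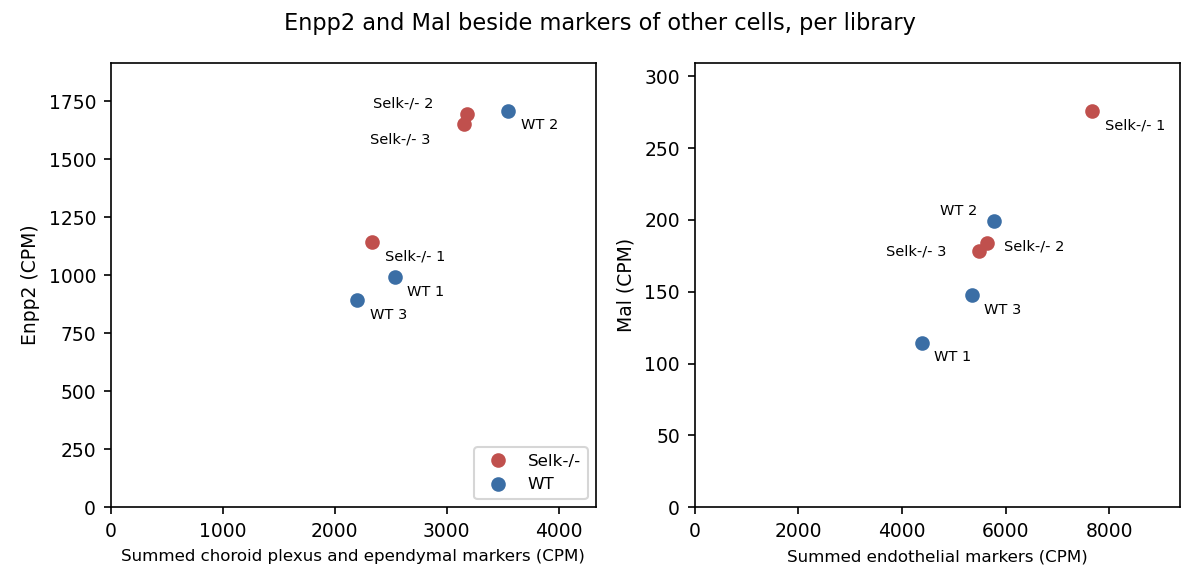
Each point is a library, red for Selk-/- and blue for WT. At left, Enpp2 is plotted against summed choroid plexus and ependymal markers, and at right, Mal against summed endothelial markers, all in CPM. Selk-/- 1 holds the highest value on both axes at right, and WT 2 on both axes at left.

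The other lists differed among themselves across the libraries, and some had lower sums in all Selk-/- libraries than in any WT library. The 10 astrocyte markers summed to 374 to 467 CPM in Selk-/- libraries, against 370 to 563 CPM in WT libraries, and the 10 neuron markers to 45.2 to 56.4 CPM in Selk-/- libraries, against 44.8 to 48.9 CPM in WT libraries. WT 2 was not the highest library for the astrocyte sum or the neuron sum. The 10 border macrophage markers summed to 336 to 683 CPM in Selk-/- libraries, against 744 to 1076 CPM in WT libraries. WT 2 was the highest library for this sum and for 9 of the 10 markers. The 10 neutrophil markers summed to 412, 5922 and 1071 CPM in Selk-/- 1 to 3, against 476 to 1172 CPM in WT libraries, so Selk-/- 2 stood apart. Fibroblast and mural markers summed to 1496 to 2040 CPM in Selk-/- libraries, against 1432 to 1555 CPM in WT libraries, and lymphocyte markers to 17.4 to 22.2 CPM in Selk-/- libraries, against 25.3 to 31.0 CPM in WT libraries. Of the 8 markers of Schwann cells, which make peripheral myelin, Pmp2 was at 0 in all 6 libraries. The Schwann cell sum, 180 to 230 CPM in Selk-/- libraries against 132 to 168 CPM in WT libraries, was nearly all Egr2, which myeloid cells also express.

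Other genes of the lineage and of myelin lipid metabolism were read in 4 lists, and edgeR called 0 genes in each, as in the whole table. Of 30 other genes of mature oligodendrocytes, 29 were in the table and 25 were tested, of which 15 were lower in Selk-/- libraries, with a median log2 fold change of -0.11. At an unadjusted p under 0.05 in edgeR there were 5 of 25, all lower. Of all genes tested, 9.74% were past it as lower and 9.34% as higher. The most abundant per length were Evi2a, a transmembrane protein, at a log2 fold change of -0.20 (adjusted p = 0.187 in edgeR), and Ndrg1, at 0.36 (adjusted p = 0.363 in edgeR). DESeq2 called 1 of the 21 to which it gave an adjusted p, against 7.62% of all genes. This was Tmem63a, a mechanically gated ion channel (log2 fold change -0.27, DESeq2 adjusted p = 0.0492).

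Of 20 genes of oligodendrocyte precursors, 13 were tested, 7 of them were lower, and the median log2 fold change was -0.0037. At an unadjusted p under 0.05 in edgeR, 1 was lower and 2 were higher, against 9.74% and 9.34% of all genes tested. The most abundant were Cspg4, the proteoglycan NG2, which pericytes also make (log2 fold change 0.14, edgeR adjusted p = 0.667), and Tcf7l2, a transcription factor of Wnt signaling (0.32, adjusted p = 0.148). DESeq2 called 2 of the 8 to which it gave an adjusted p, in opposite directions, against 7.62% of all genes. Vcan, a matrix proteoglycan, was at 4.07, 11.2 and 6.31 CPM in Selk-/- 1 to 3, against 3.09, 1.74 and 3.07 CPM in WT 1 to 3, and had a DESeq2 adjusted p of 0.0073. Bmp4, a secreted growth factor, was at 6.45, 6.84 and 10.0 CPM in Selk-/- 1 to 3, against 24.0, 10.6 and 10.7 CPM in WT 1 to 3, and had a DESeq2 adjusted p of 0.0389.

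Of the 15 genes of myelin lipid synthesis, 7 were lower, and the median log2 fold change was 0.01. At an unadjusted p under 0.05 in edgeR, 2 were lower and 1 was higher, against 9.74% and 9.34% of all genes tested. DESeq2 called 0 of the 15, against 7.62% of all genes. Cers2, the synthase of very long chain ceramides (log2 fold change -0.03), and Degs1, which makes ceramide from dihydroceramide (0.09), were the most abundant. Of the 15 genes of lysosomal breakdown and export of these lipids, 12 were lower, against 51.3% of all genes tested, and the median was -0.14. Of the 15, 5 were lower and 1 higher at an unadjusted p under 0.05, against 9.74% and 9.34% of all genes tested. Psap, the precursor of the saposins, was among the most abundant (-0.17, edgeR adjusted p = 0.245). DESeq2 called 2 of the 15, both lower, against 3.7% of all genes as lower and 3.92% as higher. It called Hexa, which encodes a lysosomal enzyme subunit, at 480, 426 and 469 CPM in Selk-/- 1 to 3, against 647, 612 and 538 CPM in WT 1 to 3 (log2 fold change -0.39, DESeq2 adjusted p = 0.0032). It also called Abcg1, a cholesterol exporter, at 93.2, 93.1 and 98.9 CPM in Selk-/- 1 to 3, against 134, 121 and 122 CPM in WT 1 to 3 (-0.41, DESeq2 adjusted p = 0.0002). The genes that DESeq2 called, other than those given in each list by level, were named after their values were seen.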

How the data were processed

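The table that the authors deposited holds raw counts and FPKM per gene for 6 libraries. Per the labels' protocols, reads were aligned with Hisat2 2.0.5, quantified with stringtie 2.2.0 and tested with DESeq2 1.20.0. The submitters' processing notes list mm8, mm9 and Bowtie 0.12.2, which differs from that protocol. The table names no build, and its positions, which differ from those of GRCm38.p6, are printed as given. No source used here states how strand was handled.

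The counts were tested here with edgeR 4.0.16 in R 4.3.3: TMM, filterByExpr, robust quasi-likelihood fit, no covariate, two-sided, Benjamini-Hochberg adjustment over 17739 tested genes (of 33412 with any count) at 0.05. FPKM was used for levels between genes. DESeq2 1.42.0, limma-voom and limma on log2 FPKM (limma 3.58.1), other scalings and filters, a block for the small nucleolar RNA split (100 CPM), and each library left out were alternatives. The edgeR step was tested on simulated data with known changes. It called 23.2% of genes changed 1.5 times, 56% of those changed 2 times and 84.1% of those changed 4 times. There were 12 false calls. Changes under 1.5 times were not simulated. The chi-square per degree of freedom was 13.3 to 43.5 for pairs of libraries of 1 group, which are therefore no duplicates. Members, lists and alternatives were chosen with earlier results of these data known. Values in every library are given for the 6 members with the highest FPKM, the 6 with the smallest p, those called, and Mbp, and in the other lists for the 2 most abundant tested genes and any called by edgeR; other choices are stated. Not every gene that this rule takes is reported. Depth was 21112082 to 28123871 counts per library.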

Additional observations from a re-analysis of the deposited data

How the results depend on the processing

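DESeq2 called 972 genes and 2 of the members, against 0 in edgeR, where 3383 genes had an unadjusted p under 0.05. With any 1 library left out, edgeR called 0 to 59 genes (59 without Selk-/- 1) and 0 members. The members below WT then numbered 17 to 25, their median log2 fold change was -0.56 to -0.14 (-0.57 to -0.12 without Trf), and the log2 ratio of the sum was -0.03 to 0.20 (0.08 to 0.48 without Trf). Limma on log2(FPKM + 1) or log2(FPKM + 0.1) with a mean of at least 1 kept 15 members, of which 12 were lower; fewer genes were tested there. With the small nucleolar RNA block, the log2 fold changes of Mbp (0.13), Mobp (0.36), Pllp (0.28), Ermn (0.092), Bcas1 (0.020), Olig2 (0.20) and Ppp1r14a (0.027) turned positive and that of Enpp2 negative (-0.066); the cause was not tested. Ugt8a was at -1.2e-04 with no filter, -0.049 in limma-voom and -0.092 without both libraries titled with a pair of numbers, and Cldn11 was at 0.11 in limma-voom. With any 1 library left out, the log2 fold changes that turned were those of Cldn11 (-0.29 to 0.14), Ugt8a (-0.34 to 1.28), Olig2 (-0.75 to 0.66), Ermn (-0.70 to 0.73), Gjc3 (-0.75 to 0.24), Olig1 (-0.77 to 0.13) and Myrf (-0.95 to 0.28). Of the other values of single genes, 386 kept their direction and their side of the threshold. A further 2, those of Cnp and Trf in DESeq2, kept their direction and passed the threshold. No paired analysis was possible because only 1 number is shared between libraries whose title holds a single number; a further shared number stands in a title with a pair of numbers, which names no single replicate. Depth limits the 15 members under 2 FPKM, which held 267 to 888 counts in all per library.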
